A study of Homo sapiens with 3 samples.

Results

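The metallothioneins of T47D cells were followed through 7 genes, MT1E, MT1F, MT1G, MT1H, MT1M, MT1X and MT2A. Every probe set that the platform annotation ties to exactly 1 of these symbols was taken, which gave 11 of 54613 probe sets other than controls, and the 7 genes were among 19775 measured. T47D is a line of human luminal breast carcinoma cells with receptors for estrogen and progesterone. The cells were held for 4 h in RPMI medium with 10% charcoal-stripped serum, from which steroids have been removed. They were then given 0.1% ethanol as vehicle, 1 µM estradiol or 1 µM of the peptide ERα17p, and RNA was prepared after 3 h. Estradiol is the main natural estrogen, and ERα17p is synthetic and has the sequence of a short stretch of the receptor. The labels give ethanol for the vehicle cells alone, and the solvent of the treated cells was not stated. Each condition was represented by 1 Affymetrix HG-U133 Plus 2 array, so the spread between cultures was not measured and no significance test was run.

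Metallothioneins are small cytosolic proteins, unusually rich in cysteine, whose thiol groups hold zinc, copper and cadmium in clusters. The zinc-sensing transcription factor MTF1 binds metal response elements in their promoters and raises their transcription when free zinc or cadmium rises, so their mRNA is widely read as a gauge of available zinc. Glucocorticoids and oxidants are also known to induce several of them, among them MT2A. The human genes lie in 1 cluster, among other metallothionein genes and pseudogenes, in the order MT2A, MT1E, MT1M, MT1F, MT1G, MT1H and MT1X. They are close copies of one another, so short probes for one can also capture transcripts of another.

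The metal response elements are shown first, because they are the known shared control sites of this family. The RefSeq promoter table (GRCh38.p14) held 3 of the 7 genes. MT1E, MT1F, MT1G and MT1M had no entry, so core counts could not be compared with expression differences across the family. The 250 bases before each start site are printed below on the strand of the gene, which is the plus strand for all 3. Capitals mark the core of the metal response element, searched as TGCACNC and TGCGCNC on both strands, where N is any base. The windows are chr16:56608334-56608583 for MT2A, chr16:56669564-56669813 for MT1H and chr16:56682220-56682469 for MT1X.
MT2A: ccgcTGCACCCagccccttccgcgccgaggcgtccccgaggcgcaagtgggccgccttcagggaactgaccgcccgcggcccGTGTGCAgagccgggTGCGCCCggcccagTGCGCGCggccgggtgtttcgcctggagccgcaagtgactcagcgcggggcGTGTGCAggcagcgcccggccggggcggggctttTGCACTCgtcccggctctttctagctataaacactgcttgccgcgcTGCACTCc
MT1H: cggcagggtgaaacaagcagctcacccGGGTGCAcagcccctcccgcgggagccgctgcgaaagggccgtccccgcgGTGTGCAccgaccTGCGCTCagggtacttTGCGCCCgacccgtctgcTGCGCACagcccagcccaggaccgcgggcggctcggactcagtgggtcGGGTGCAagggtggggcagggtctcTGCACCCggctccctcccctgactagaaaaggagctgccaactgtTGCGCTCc
MT1X: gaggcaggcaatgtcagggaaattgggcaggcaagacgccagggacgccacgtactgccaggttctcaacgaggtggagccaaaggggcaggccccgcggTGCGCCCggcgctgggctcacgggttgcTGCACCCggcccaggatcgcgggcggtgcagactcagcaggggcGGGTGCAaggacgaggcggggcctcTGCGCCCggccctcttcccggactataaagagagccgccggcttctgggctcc

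MT1H had 8 such cores, MT2A had 7 and MT1X had 4. Of 35116 promoter windows of the same length in the table, 24.8% held at least 1 core of either form, 0.37% held at least 4, 0.0313% at least 7 and 0.0171% at least 8. In MT1H and MT1X a core on the other strand occupied the same place, from base −78 to base −72 relative to the start site, and another lay from −53 to −47 on the gene strand. In MT2A the nearest counterparts lay from −88 to −82 and from −54 to −48. The palindromic estrogen response element, searched as the arms GGTCA and TGACC with 3 bases between them, had 0 matches in the 3 windows and stood in 0.0399% of all windows. The steroid receptor hexamer TGTTCT had 0 matches and stood in 12.4%. The antioxidant response element TGACNNNGC was matched 1 time in MT2A, 1 time in MT1X and 0 times in MT1H, against 10.9% of all windows with at least 1 match. A match is a description of the letters and shows no binding, and the absence of one says only that these letters are not in this window.

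**Figure D1:**
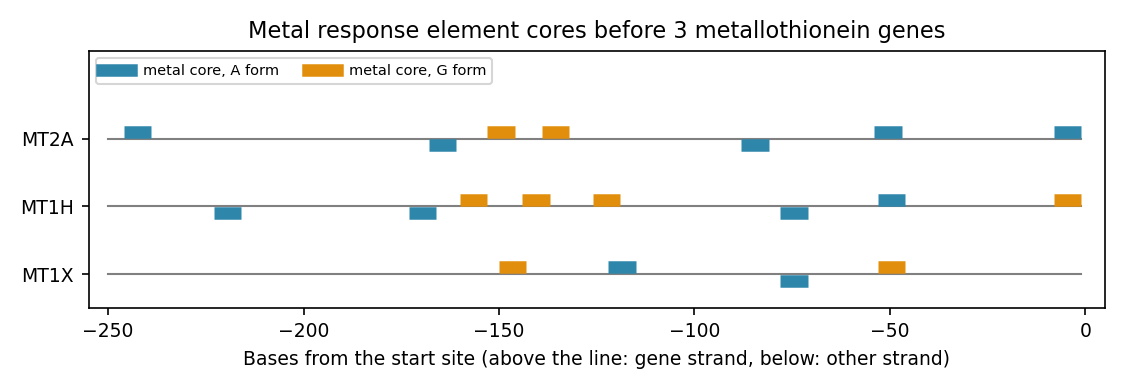
Positions of metal response element cores in the 250 bases before the start sites of MT2A, MT1H and MT1X. The x axis is the distance in bases from the start site, bars above each line are cores on the gene strand and bars below it cores on the other strand, and the colours separate the core with A (blue) from the core with G (orange). The 7 cores of MT2A lie between bases −246 and −2, the 8 of MT1H between −223 and −2, and the 4 of MT1X between −150 and −47.

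The deposited values are relative to a baseline of each probe set, taken here as log2, so they show how an array stands against the other arrays and not how abundant a transcript is. Levels of different metallothioneins can therefore not be ranked. For the same reason the luminal markers of T47D could be read as differences alone. All 9 were measured, with differences between −0.16 (FOXA1) and 1.44 (PGR, the progesterone receptor) for estradiol minus vehicle. In RNA from whole cultures, fewer expressing cells and less RNA per cell cannot be told apart.

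Over the whole platform the vehicle values were spread more widely than those of the treated arrays, with an SD across non-control probe sets of 0.434, beside 0.158 for estradiol and 0.166 for ERα17p. The 3 control probe sets for 18S ribosomal RNA averaged −1.76 for vehicle, 0.11 for estradiol and −0.0071 for ERα17p. For ACTB, the value at the 3′ end minus that at the 5′ end was 0.52, −0.29 and −0.17 in the same order. What these properties of the vehicle array contributed to the metallothionein values was not tested.

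The metallothioneins were lower on both treated arrays than on the vehicle array, and MT1X, MT1F, MT1H and MT2A differed by the most. On the vehicle array all 11 probe sets lay above their baseline, from 0.0020 to 1.44 with a median of 0.62. With estradiol they lay between −0.18 and 0.063 with a median of −0.0079, and with ERα17p between −0.23 and 0.023 with a median of −0.11. The vehicle array was the highest of the 3 for 11 of 11 probe sets, an order found for 38.9% of all probe sets. These 11 sets are not independent, because 9 of them have probes that can also capture other transcripts. Some margins were small, as for MT1M at 0.0020 with vehicle and −0.023 with estradiol. Relative to these baselines, the 11 probe sets were spread more widely on the vehicle array than on either treated array. The whole platform had the same property. Its SD on the vehicle array was 0.434, while the estradiol array had 0.158 and the ERα17p array 0.166. A wider spread on the vehicle array was therefore not particular to this family.

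MT1X, the last gene of the cluster, had the largest differences. Its probe set 208581_x_at stood at 1.003 on the vehicle array, 0.063 after estradiol and −0.18 after ERα17p. Its probe set 204326_x_at stood at 1.44, −0.0079 and −0.15. Both sets were thus high on the vehicle array and near their baseline on the treated arrays, by differences of −0.94 and −1.45 for estradiol and −1.18 and −1.59 for ERα17p. The second set needs care over its name. The platform annotation calls it MT1X, but the RefSeq transcript listed for it belongs to MT1L, a transcribed pseudogene of the same cluster. With both sets, the MT1X difference from vehicle was −1.19 ± 0.36 (SD over n = 2 probe sets) with estradiol and −1.38 ± 0.29 with ERα17p, or 2.29-fold and 2.61-fold lower. Without the set of the MT1L transcript the estradiol difference was −0.94, which is short of 2-fold, and the ERα17p difference was −1.18.

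MT1F, another isoform of the metallothionein-1 group, came next. Its probe sets 213629_x_at and 217165_x_at stood at 0.90 and 1.01 on the vehicle array. With estradiol they stood at 0.019 and −0.042, and with ERα17p at 0.023 and −0.045. The treated arrays were nearly the same for both sets. The differences from vehicle were −0.96 ± 0.12 (SD over n = 2 probe sets) for estradiol and −0.96 ± 0.12 for ERα17p, each just short of 2-fold.

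MT1H and MT2A, with 1 probe set each, had a similar pattern. MT1H stood at 0.71 with vehicle, 0.026 with estradiol and −0.11 with ERα17p. MT2A, the main metallothionein-2 of human cells, stood at 0.62, −0.078 and −0.16. The MT1H differences were −0.68 with estradiol and −0.81 with ERα17p, and those of MT2A were −0.69 and −0.78. In both genes the ERα17p array was a little below the estradiol array.

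MT1G, MT1E and MT1M differed much less. The MT1G probe set 204745_x_at stood at 0.37 with vehicle, 0.038 with estradiol and −0.12 with ERα17p, whereas 210472_at stood at 0.045, −0.18 and −0.023. The 2 sets of MT1G therefore put the treated arrays in opposite order. The MT1E sets 212859_x_at and 216336_x_at stood at 0.17 and 0.038 with vehicle, −0.0055 and −0.064 with estradiol, and −0.23 and −0.035 with ERα17p. MT1M, with the single set 217546_at, stood at 0.0020, −0.023 and −0.056. Its 3 values were almost level. The gene differences with estradiol were −0.27 ± 0.076 for MT1G and −0.14 ± 0.056 for MT1E (SD over n = 2 probe sets each) and −0.025 for MT1M. With ERα17p they were −0.28 ± 0.30, −0.24 ± 0.24 and −0.058.

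**Figure D2:**
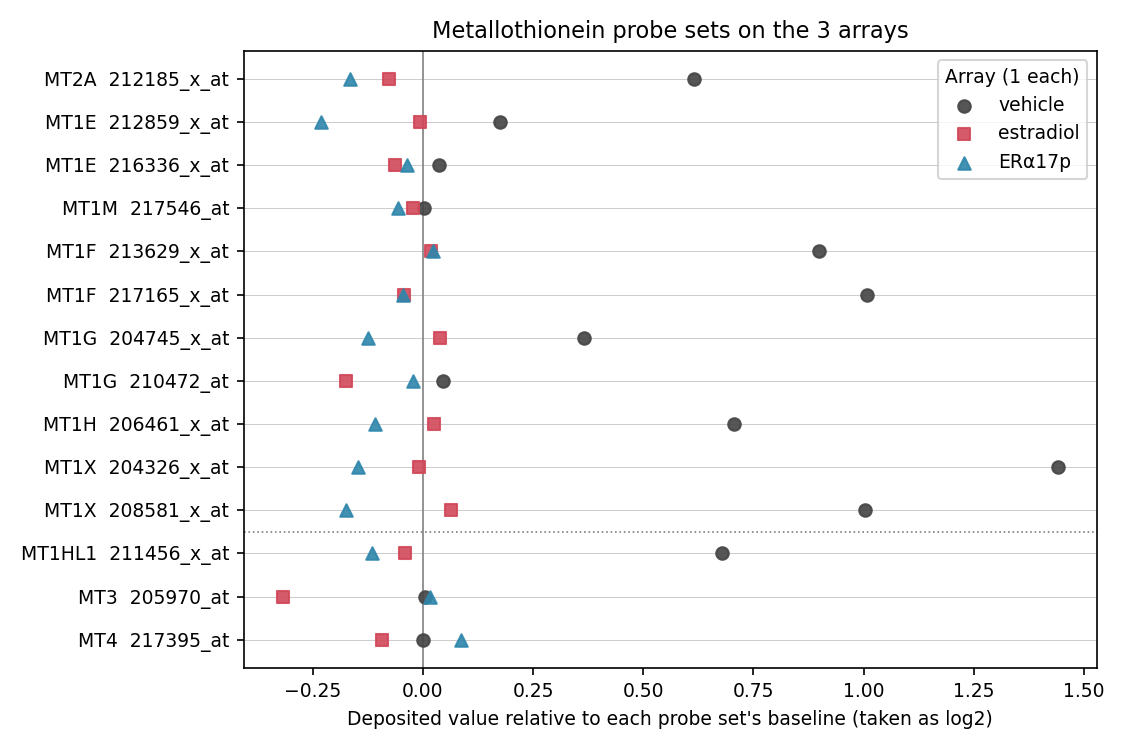
Deposited values of every metallothionein probe set on the vehicle (circles), estradiol (squares) and ERα17p (triangles) arrays, 1 array each; the x axis is the value relative to the baseline of that probe set, taken as log2, and genes follow their order in the cluster, with MT1HL1, MT3 and MT4 below the dotted line. The vehicle circles reach 1.44 while all treated points of the 7 genes lie between −0.23 and 0.063.

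Counted by size, 1 of the 7 genes (MT1X) was at least 2-fold lower with estradiol and 0 were at least 2-fold higher. Of all genes, 1.63% were at least 2-fold lower and 1.57% at least 2-fold higher in that comparison. At 1.5-fold, 4 of 7 were lower (MT1X, MT1F, MT2A and MT1H) and 0 higher, beside 8.42% and 6.48% of all genes. The median over the 7 genes was −0.68, beside −0.0043 over all genes. By rank, 0.718% of all genes were as low as MT1X or lower, 1.93% as low as MT1F, 5.84% as low as MT2A and 6.14% as low as MT1H. MT1G, MT1E and MT1M lay well inside the bulk of genes, with 22.9%, 34.0% and 47.3% as low or lower.

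With ERα17p, 1 of 7 genes (MT1X) was again at least 2-fold lower and 0 higher, beside 1.87% and 1.9% of all genes. At 1.5-fold, 4 of 7 were lower (MT1X, MT1F, MT1H and MT2A) and 0 higher, beside 8.76% and 6.88%. The median over the 7 genes was −0.78, beside 0.0011 over all genes. As low as MT1X or lower were 0.359% of all genes, as low as MT1F 2.19%, as low as MT1H 4.02% and as low as MT2A 4.53%. Counted as probe sets, 2 of 11 were at least 2-fold lower with estradiol and 3 of 11 with ERα17p, beside 2.47% and 3.05% of all probe sets. Both comparisons subtract the same vehicle array, so a high value on that array enters both.

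The largest differences came from probe sets open to cross-hybridisation. An identifier ending in _x_at marks a set with probes that can also capture other transcripts, and 9 of the 11 sets ended so, while 0 ended in _s_at, the mark of a set shared by several transcripts. The 9 _x_at sets had a median of −0.69 with estradiol and −0.81 with ERα17p, and 6 of them were at least 1.5-fold lower in each comparison. Of all 4207 _x_at sets on the array, 10.6% and 10.1% were at least 1.5-fold lower, and their medians were −0.058 and −0.049. The MT1E sets, both _x_at, had differences of −0.18 and −0.10 with estradiol and of −0.41 and −0.073 with ERα17p. The 2 sets without the suffix, for MT1G and MT1M, had differences of −0.22 and −0.025 with estradiol and of −0.068 and −0.058 with ERα17p. The 4 genes with the largest differences were thus measured by _x_at sets alone, and how much each set owes to its own gene was not tested.

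**Figure D3:**
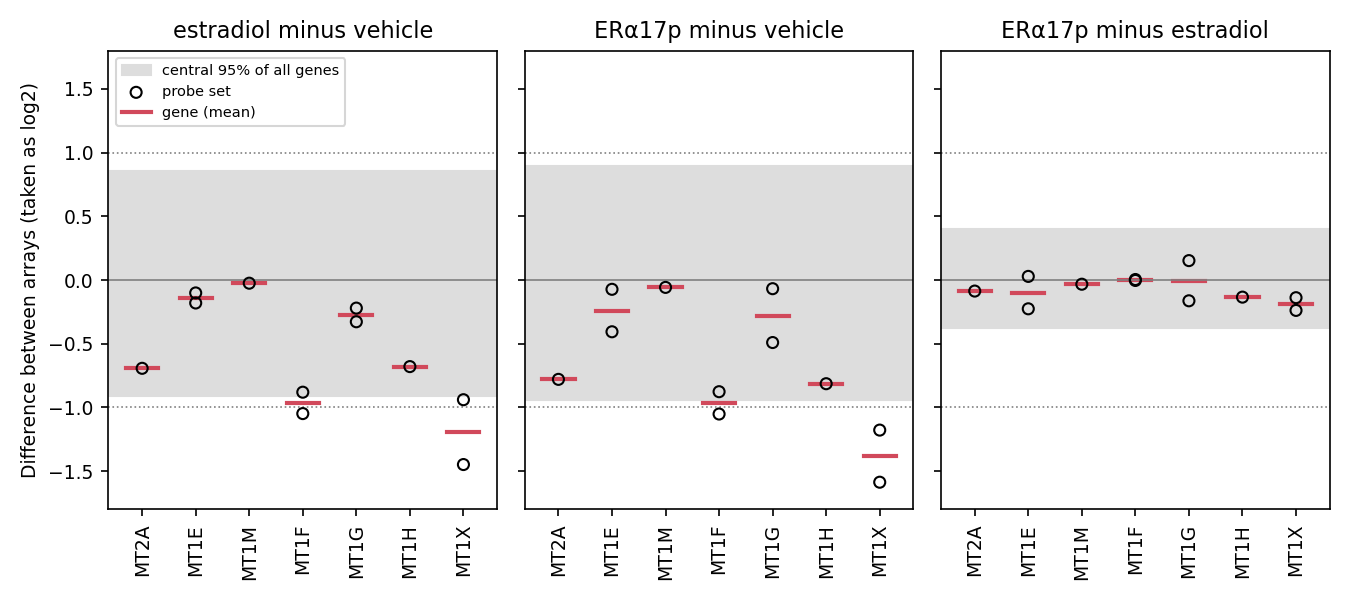
Differences between arrays for the 7 metallothionein genes in their order along the cluster, taken as log2; circles are probe sets, red bars the mean of a gene's sets, the grey band the central 95% of all genes, and dotted lines mark 2-fold. MT1X and MT1F lie below the band in both comparisons with the vehicle, and all 7 genes lie inside it for ERα17p minus estradiol.

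Between the treated arrays the metallothioneins differed little. The ERα17p minus estradiol difference ranged over the 7 genes from −0.19 (MT1X) to 0.00026 (MT1F), with a median of −0.087 beside 0.0062 over all genes. At 2-fold, 0 of 7 genes were lower and 0 higher, where 0.086% and 0.0607% of all genes were. At 1.5-fold the count was also 0 in either direction, where 0.607% and 0.521% of all genes were. The ERα17p array was the lower one for 8 of 11 probe sets, as it was for 50.2% of all probe sets. The ERα17p minus estradiol difference was −0.14 and −0.24 in the 2 sets of MT1X and −0.13 in MT1H. In MT1E and MT1G the 2 sets of the gene had opposite signs, at −0.23 and 0.028, and at −0.16 and 0.15. With 1 array for each agent, no interval for these small differences could be given.

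The position in the cluster did not order the differences. From MT2A to MT1X along the chromosome, the estradiol differences ran −0.69, −0.14, −0.025, −0.96, −0.27, −0.68 and −1.19. Genes with small differences, such as MT1E, MT1M and MT1G, lay between genes with large ones. Of 9 genes listed from either side of the cluster 8 were measured, with medians of 0.11 for estradiol and 0.060 for ERα17p. Of these 8, 0 were at least 1.5-fold lower, where 8.42% of all genes were with estradiol and 8.76% with ERα17p. With so few genes, a count of 0 does not set the neighbours apart from all genes. NUDT21, a pre-mRNA cleavage factor subunit, was higher by 0.70 ± 0.17 and 0.93 ± 0.21 (SD over n = 3 probe sets). CETP, with 1 probe set, had differences of 0.42 and 0.52. HERPUD1, a gene of the unfolded protein response, had differences of −0.32 ± 0.70 and −0.38 ± 0.70 (SD over n = 2 probe sets).

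Among other metallothionein genes, 3 of 9 listed were measured. MT1HL1, an MT1H-like copy outside the cluster, stood at 0.68 with vehicle, −0.041 with estradiol and −0.11 with ERα17p. Its differences of −0.72 and −0.79 were close to those of MT1H itself, and its single set also ends in _x_at. MT3, the isoform known from the brain, stood at 0.0042, −0.32 and 0.015, so that the estradiol array was the low one. MT4, the isoform of stratified epithelia, stood at −0.000042, −0.092 and 0.087. MT3 and MT4 were near their baseline on the vehicle array, as was the member MT1M at 0.0020. Their differences were −0.32 and −0.092 with estradiol, and 0.011 and 0.087 with ERα17p. In the promoter table, 250 bases before MT4 held 3 metal response element cores and the same stretch before MT1B held 3.

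Genes of the zinc system lay on both sides of the vehicle. MTF1, the zinc sensor known to bind metal response elements, stood at 0.39 with vehicle, −0.046 with estradiol and −0.17 with ERα17p. Its differences were −0.43 ± 0.42 and −0.55 ± 0.36 (SD over n = 3 probe sets), short of 1.5-fold. SLC30A1, a zinc exporter that MTF1 is known to induce, had differences of 0.40 ± 0.16 and 0.34 ± 0.064 (SD over n = 3 probe sets). Both differences were short of 1.5-fold and opposite in sign to those of the metallothioneins. Whether available zinc differed between the cultures was not tested. Over MTF1 and the 19 zinc transporters listed, the medians were 0.17 and 0.18. With estradiol 2 of these 20 genes were at least 1.5-fold lower and 3 higher, and with ERα17p 2 were lower and 4 higher. Of all genes, 8.42% were lower and 6.48% higher by as much with estradiol, and 8.76% and 6.88% with ERα17p.

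Individual zinc transporters differed in opposite directions. SLC39A6 was higher by 1.89 ± 1.10 with estradiol and 1.77 ± 1.03 with ERα17p (SD over n = 4 probe sets). SLC39A10, its close relative with 1 probe set, was higher by 1.10 and 1.03. SLC39A4, the intestinal zinc importer, differed by −0.92 and −0.995, and SLC39A7, which releases zinc from the endoplasmic reticulum, by −0.62 and −0.73. SLC30A5, which loads zinc into the secretory pathway, differed by 0.79 ± 0.80 and 0.91 ± 0.72 (SD over n = 5 probe sets).

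Copper genes had medians near 0, at 0.020 for estradiol and 0.032 for ERα17p over 9 genes. CCS, the copper chaperone of superoxide dismutase, had 1 probe set. It differed from vehicle by −1.01 and −1.05 and was the only one of the 9 past 2-fold. Of all genes, 1.63% were at least 2-fold lower with estradiol and 1.87% with ERα17p. ATOX1, a copper chaperone, differed by −0.59 and −0.46, and SLC31A2, a copper transporter relative, by 0.55 and 0.79. SOD1 itself differed by −0.21 and −0.16.

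Iron and oxidant response genes had medians of −0.15 and −0.13 over 11 measured of 12 listed. With each agent 2 of them were at least 2-fold lower, beside 1.63% of all genes with estradiol and 1.87% with ERα17p. They were HMOX1 and OSGIN1, each with 1 probe set. HMOX1, the heme oxygenase that heme, cadmium and oxidants induce, stood at 1.22 with vehicle, −0.21 with estradiol and 0.028 with ERα17p. Its differences were −1.43 and −1.20. OSGIN1, an oxidant-induced growth inhibitor, stood at 1.46, 0.13 and −0.83, so that ERα17p minus estradiol was −0.95. SLC7A11, the cystine importer, differed from vehicle by −0.56 ± 0.51 and −0.94 ± 0.55 (SD over n = 3 probe sets). TFRC, the transferrin receptor, differed from vehicle by 0.68 ± 1.10 and 0.55 ± 0.80 (SD over n = 5 probe sets). Over the list, 7 of 11 genes lay below the vehicle and 4 above it with each agent. Of all genes, 50.6% lay below it with estradiol and 49.9% with ERα17p.

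Glucocorticoid and progestin responsive genes, taken because these steroids are known inducers of metallothioneins, had medians of −0.056 and −0.082 over 9 measured of 10 listed. The sign of these medians was not stable. Without suffixed sets they were 0.044 and 0.20 over 7 genes, and with the median of each gene's sets they were −0.021 and 0.15. FKBP5, a chaperone and sensitive steroid target, differed from vehicle by 0.37 ± 0.40 and 0.37 ± 0.48 (SD over n = 3 probe sets). DUSP1, a phosphatase of MAP kinases, differed by −0.82 ± 0.96 and −0.76 ± 1.08 (SD over n = 3 probe sets). TSC22D3 differed by −0.45 ± 0.80 and −0.19 ± 0.73 (SD over n = 3 probe sets). SGK1, a serum and steroid induced kinase with 1 probe set, differed from vehicle by 1.47 with estradiol and −0.15 with ERα17p. Its ERα17p minus estradiol difference was −1.63. The corresponding metallothionein values were the ones given above, from −0.19 to 0.00026.

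**Figure D4:**
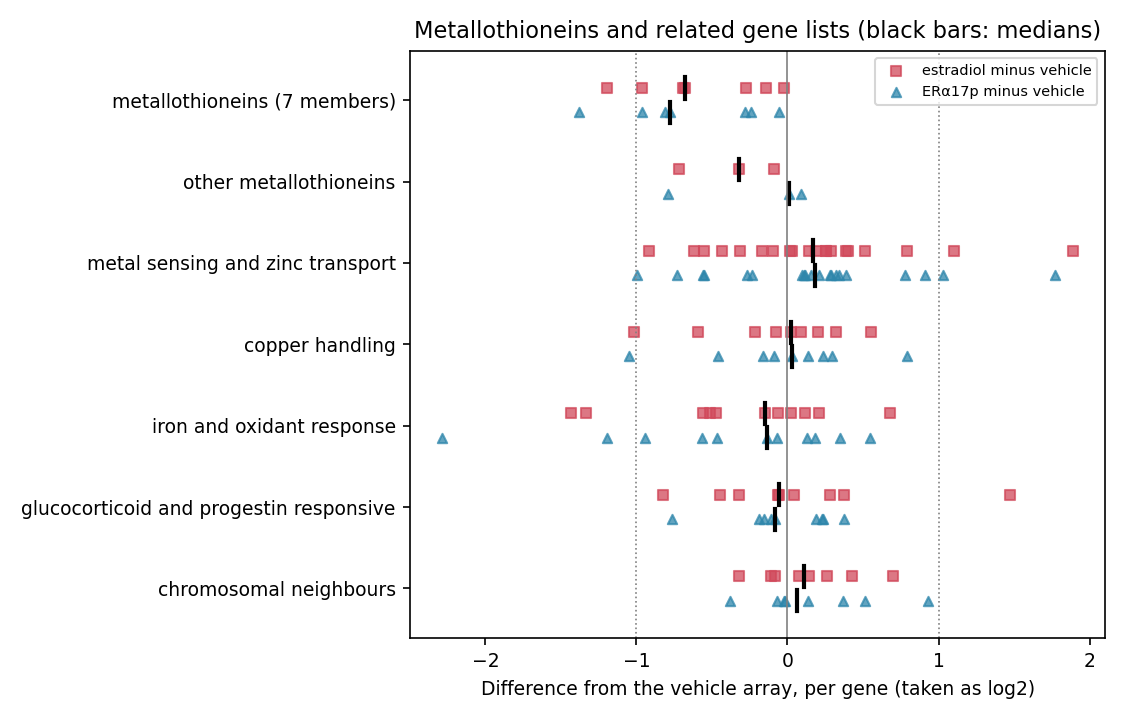
Differences from the vehicle array, per gene and taken as log2, for the 7 metallothioneins and 6 related gene lists; squares are estradiol minus vehicle, triangles ERα17p minus vehicle, black bars the medians and dotted lines 2-fold. The metallothionein medians of −0.68 and −0.78 lie to the left of 0, and the medians of the zinc, copper and flanking genes lie between 0.020 and 0.18. Also left of 0 are the medians of the iron and oxidant genes (−0.15 and −0.13) and the glucocorticoid and progestin genes (−0.056 and −0.082). Other metallothioneins have medians of −0.32 with estradiol and 0.011 with ERα17p.

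Genes outside the family with a similar pair of differences were looked for next. The 5 genes nearest to the pair of metallothionein medians, by Euclidean distance over the 2 differences from vehicle, were BRAT1, GRWD1, MGLL, ITPKC and PRKAB1, at distances from 0.0092 to 0.014. BRAT1 differed from vehicle by −0.68 and −0.77, and PRKAB1, a regulatory subunit of AMP-activated protein kinase, by −0.69 and −0.79. Within a distance of 0.1 there were 226 genes outside the lists, or 1.15% of the genes outside them. The measure rests on 3 arrays, of which the vehicle array is shared by both differences.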

How the data were processed

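RNA of 3 T47D cultures was hybridised to 1 array each, grouped by label. The deposited log2 values were made by the authors with RMA, per the submitters' processing notes. The RMA version, log base and centring step were not given in the sources used here. Log2 was assumed because RMA gives it, and differences hold if 1 baseline served all arrays. The platform annotation tied 41091 probe sets to 1 gene, 1801 to several and 11721 to none, and only the first were used as genes. The gene numbers of all 11 metallothionein probe sets matched current RefSeq symbols. A gene's value is the mean of its probe sets, and an SD covers those sets within these arrays only. With 1 array per group, genes were counted at 2-fold and 1.5-fold, beside the share of all genes, with no test. Precision is limited by the number of arrays. No absolute level was kept, so signal over background could not be judged. Named genes were all metallothioneins and the 5 genes nearest in pattern. From each list, others were drawn from the 4 genes with the largest difference in a comparison, and not all of these were named. MTF1, SLC30A1, SLC39A7 and SOD1 were added for their roles after their values were seen. The members and lists were chosen with earlier results of these data known. Promoters were scanned in the RefSeq table. Python 3.11.15, numpy 2.4.6, pandas 2.3.3 and matplotlib 3.10.9 were used, and the computations were tested on simulated data.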

Additional observations from a re-analysis of the deposited data

How the results depend on the processing

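Alternatives were a 1.5-fold threshold, centring each comparison at its gene median, leaving out _x_at and _s_at probe sets, the median in place of the mean of a gene's sets, and counting probe sets. Added after seeing the data were the MT1X set of the MT1L transcript left out, suffixed sets alone, and for the other lists centring, no suffixed sets and the median. At 1.5-fold, 4 genes were lower with estradiol and 4 with ERα17p, in place of 1 each. Without suffixed sets, 2 genes, MT1G and MT1M, were left, with 0 at least 2-fold lower in either comparison and medians of −0.12 for estradiol, −0.063 for ERα17p and 0.060 for ERα17p minus estradiol. That change comes with the loss of 5 members. Counted as probe sets, 2 of 11 were at least 2-fold lower with estradiol and 3 with ERα17p. Without the set of the MT1L transcript, 0 genes were at least 2-fold lower with estradiol. The glucocorticoid and progestin list had a median of 0.20 for ERα17p over the 7 genes left without suffixed sets and 0.15 with the median of a gene's sets, against −0.082. For estradiol it was 0.044 without suffixed sets, against −0.056. The cause was not tested. Of these, the 0.15 and the 0.044, and all counts and medians not given here, stayed within 1.5 times (counts) or within the mean SD between sets of a gene (medians), which was 0.15, 0.24 and 0.12 for the 3 comparisons. No paired analysis was possible because each group has 1 array. Leaving out the only array of a group ends its comparison.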
